A study of Mus musculus with 9 samples.

Results

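The comparison described here sets 3 RNA libraries of mouse pancreatic stellate cells with a guide RNA against Hif1a beside 3 libraries of the same cells with a control guide, all kept at low oxygen. These are 6 of the 9 libraries of the study, picked by their labels, and the remaining 3 hold control-guide cells at normal oxygen. The comparison itself was chosen with earlier results of these data known. Pancreatic stellate cells hold vitamin A droplets at rest and can turn into the matrix-making fibroblasts in fibrosis and around pancreatic tumours. The question is which genes outside the known hypoxia, sugar metabolism and cell division programmes differ at 0.5% oxygen when Hif1a is targeted.

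All cells came from C57BL6 mice, had become immortal by spontaneous outgrowth in culture, and carried lentiviral Cas9 with 1 guide, followed by puromycin selection without cloning. The group R26 hypoxia carries a guide to R26, the Rosa26 locus used as a neutral target, and was held at 0.5% oxygen for 48 h (n = 3). The group HIF1a-ko hypoxia carries guide sg2 to Hif1a and was held at 0.5% oxygen for 48 h (n = 3). The group R26 normoxia carries the R26 guide at 20% oxygen for 48 h (n = 3) and serves below only as a reference level, given side by side and not tested. The 9 libraries hold no Hif1a-guide cells at 20% oxygen. Whether a difference between the guides depends on low oxygen therefore cannot be told. The labels name 1 guide per arm and no second population of either, so the effect of the guide and a difference between the populations cannot be told apart. Whether the 3 libraries of a group stem from separate cultures is not stated. The p-values therefore measure the spread among these samples alone, and that spread may be technical.

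HIF-1 is a transcription factor of an oxygen-sensitive subunit, encoded by Hif1a, and a stable partner. When oxygen is scarce the subunit escapes hydroxylation and breakdown, and HIF-1 binds DNA at sites with the core ACGTG. Fibroblasts answer low oxygen with changes in metabolism and matrix, and also in the transcription factors, secreted signals, receptors and transporters through which they deal with their neighbours. Those last 4 classes, together with genes that mark the fibroblast lineage, are the subject here.

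Values are CPM, read counts scaled to a common library total with TMM library factors, given in the order of libraries 1 to 3 of a group. CPM is not divided by gene length, so levels are compared between groups for 1 gene and not between genes. Log2 fold changes are HIF1a-ko hypoxia minus R26 hypoxia, with the standard error (SE) of the fit after ±, and adjusted p-values come from edgeR's quasi-likelihood test with Benjamini-Hochberg adjustment over 18211 genes. A gene is said to have risen or fallen where the adjusted p was under 0.05. The libraries of the groups did not overlap for 9935 genes (54.6%), called or not. Genes picked by the naming rule, given with the data processing, had to show no overlap. For them a lack of overlap is no further result. By the adjusted p 4004 genes were higher (22% of those tested) and 4330 lower (23.8%), together 45.8%, while 9877 (54.2%) did not pass. Of 14322 protein-coding genes 3706 were higher and 3816 lower, together 52.5%. A share of changed members near these values is no result about a list. The median log2 fold change of all genes was -0.02. A log2 fold change of at least 1 in size, that is 2-fold, was reached by 2008 called genes (11%), 1026 higher (5.63%) and 982 lower (5.39%).

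Library totals in the 6 hypoxia libraries were 47176142 to 107840223 counts. R26 hypoxia 3 and HIF1a-ko hypoxia 1 are deeper than the others (93471706 counts or more), a split made from the data and not a group of the study. Their profiles also stood apart: the first principal component of the 6 libraries held 47.33% of the variance and put R26 hypoxia 3 at 88.88 and HIF1a-ko hypoxia 1 at 34.62, against -56.41 to -3.9 for the 4 shallower libraries. Summed markers of epithelial cells stood at 100.4 to 131.2 CPM in the 4 shallower libraries and at 16.28 and 48.15 CPM in the deeper ones, those of leukocytes at 74.73 to 91.99 against 8.839 and 17.55 CPM, and those of fat cells at 52.28 to 125.9 against 0.1513 and 0.3019 CPM. Each arm holds 1 deeper and 2 shallower libraries. With the 4 shallower hypoxia libraries and the 2 shallower normoxia libraries alone, 4709 genes were higher and 4614 lower, and 94.1% of the genes called with all 9 libraries were called in the same direction. Summed markers of acinar and islet cells were at 10.73 to 12.9 CPM in R26 hypoxia and 4.518 to 7.125 CPM in HIF1a-ko hypoxia. Most of that sum was Cela1 (log2 fold change -1.22), at 9.898 to 11.46 CPM and 4.216 to 4.926 CPM. Cpb1 (-2.08) was also lower, at 1.194 CPM or less in these libraries, and Gcg (1.47) was not called. The part of these cells in the results was not tested. The 6 libraries had 4 to 7 of 10 markers at 0 counts, and Ins1, Ins2 and Amy2a5 were at 0 in every library. As a check of the labelled cell type, the 12 fibroblast and stellate cell markers summed to between 13590 and 21500 CPM, while Lum and Des were low and Lrat, the retinol-esterifying enzyme of resting stellate cells, did not pass the filter on low counts.

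The targeted gene, Hif1a (ENSMUSG00000021109; chr12:73901375-73947530, forward strand of GRCm38), had 178, 169 and 207 CPM in R26 hypoxia against 123, 117 and 125 CPM in HIF1a-ko hypoxia (log2 fold change -0.60 ± 0.09 with adjusted p = 0.000358). Every HIF1a-ko library was below every R26 library. A cut by Cas9 need not remove the transcript, and the population was not cloned, so this level is a weak check of the labels.

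**Figure D1:**
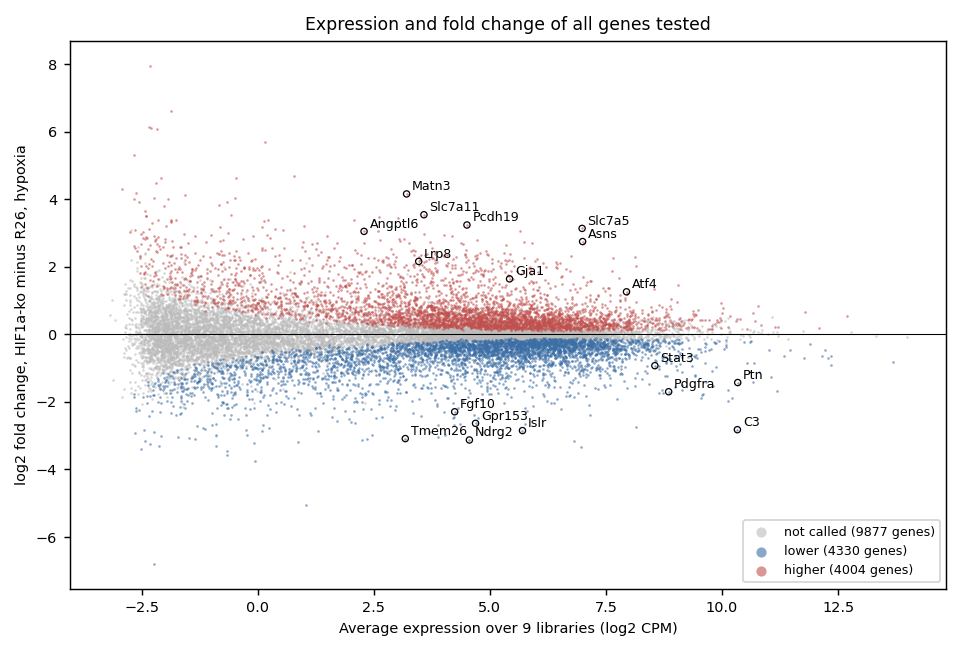
Each point is 1 of 18211 genes, with average expression over the 9 libraries (log2 CPM) on the horizontal axis and the log2 fold change of HIF1a-ko hypoxia over R26 hypoxia on the vertical axis. Red points are the 4004 higher genes, blue the 4330 lower ones, grey the 9877 not called, and circles mark some of the genes named in the text, from Matn3 at 4.16 to Ndrg2 at -3.13.

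Outside the HIF target, glycolysis and cell cycle list, the gene that rose most among well-expressed genes was Matn3, a cartilage matrix protein (log2 fold change 4.16). Chd5, a chromatin remodeller best known from neurons, had 2.04, 1.59 and 1.95 CPM in R26 hypoxia and 19.2, 21.5 and 19.8 CPM in HIF1a-ko hypoxia (log2 fold change 3.44 ± 0.11 with adjusted p = 6.12e-08). Its R26 normoxia libraries, at 2.06, 2.23 and 2.03 CPM, were as low as those of R26 hypoxia, so the high level was seen in the Hif1a-guide libraries alone. Pcdh19, a protocadherin of cell adhesion (chrX:133582860-133688987, reverse strand), stood at 4.98, 5.51 and 6.46 CPM and 57.03, 52.3 and 51.8 CPM (log2 fold change 3.24 ± 0.10 with adjusted p = 5.47e-08), with no overlap between the groups. Lmo7, which links adherens junctions to actin and is also found in the nucleus, stood at 7.63, 7.36 and 5.45 CPM and 40.7, 46.9 and 43.6 CPM (log2 fold change 2.69 ± 0.14 with adjusted p = 6.37e-07). The groups are again far apart. Among the other 15 highest genes Rad51ap1, Pbk, Esco2, Chaf1b and Pclaf serve DNA repair, chromosome division or replication and belong beside the cell cycle genes left out here, with log2 fold changes of 2.65 to 2.96.

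At the other end Smtnl2, a smoothelin-like protein, had 30.2, 31.8 and 32.1 CPM in R26 hypoxia and 4.17, 3.65 and 3.68 CPM in HIF1a-ko hypoxia (log2 fold change -3.03 ± 0.09 with adjusted p = 5.33e-08). R26 normoxia, at 8.45, 8.13 and 9.37 CPM, lay between them. Rgs11, which speeds the shut-off of G proteins, stood at 36.2, 42.2 and 41.2 CPM against 8.53, 7.36 and 6.03 CPM (log2 fold change -2.44 ± 0.12 with adjusted p = 4.34e-07), and its normoxia level was 9.15, 9.20 and 9.71 CPM. Ak4, a mitochondrial adenylate kinase, stood at 62.6, 58.4 and 54.1 CPM against 10.1, 12.4 and 11.03 CPM (log2 fold change -2.39 ± 0.17 with adjusted p = 4.09e-06), with 6.89, 7.53 and 4.45 CPM in normoxia. These genes were high in R26 hypoxia and low in both other groups. The list of HIF targets left out need not hold every known target, here and in the sections below. Ak4 shares 10.2% of its 50-base windows with Ak3l2-ps, so its count is uncertain. A different pattern was seen for Aox3, an aldehyde oxidase, at 66.7, 73.6 and 72.7 CPM against 12.4, 12.3 and 9.02 CPM (log2 fold change -2.65 ± 0.11 with adjusted p = 1.76e-07) and 76.8, 79.5 and 81.9 CPM in normoxia. Gdpd2, a glycerophosphodiesterase, was likewise near its normoxia level in R26 hypoxia (36.6, 35.5 and 38.5 and 38.8, 45.7 and 42.3 CPM) and stood at 5.84, 6.63 and 4.70 CPM in HIF1a-ko hypoxia (log2 fold change -2.88 ± 0.12 with adjusted p = 1.61e-07). Exons of Gdpd2 overlap Gm14866 on the other strand over 17.3% of its length. Tspan18, a tetraspanin, was at 26.8, 32.2 and 27.1 CPM in normoxia, 26.5, 33.7 and 24.5 CPM in R26 hypoxia and 4.84, 4.71 and 3.85 CPM in HIF1a-ko hypoxia (log2 fold change -2.65 ± 0.15 with adjusted p = 7.42e-07). For these 3 genes the Hif1a-guide libraries were below both groups of control-guide libraries. Mfap2, a microfibril protein (-2.42), and Serpinb6b, an intracellular protease inhibitor (-2.69), complete the lowest genes beside those named in the sections on receptors and lineage markers, with Ndrg2 (-3.13) and the complement gene C3 (-2.82).

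**Figure D2:**
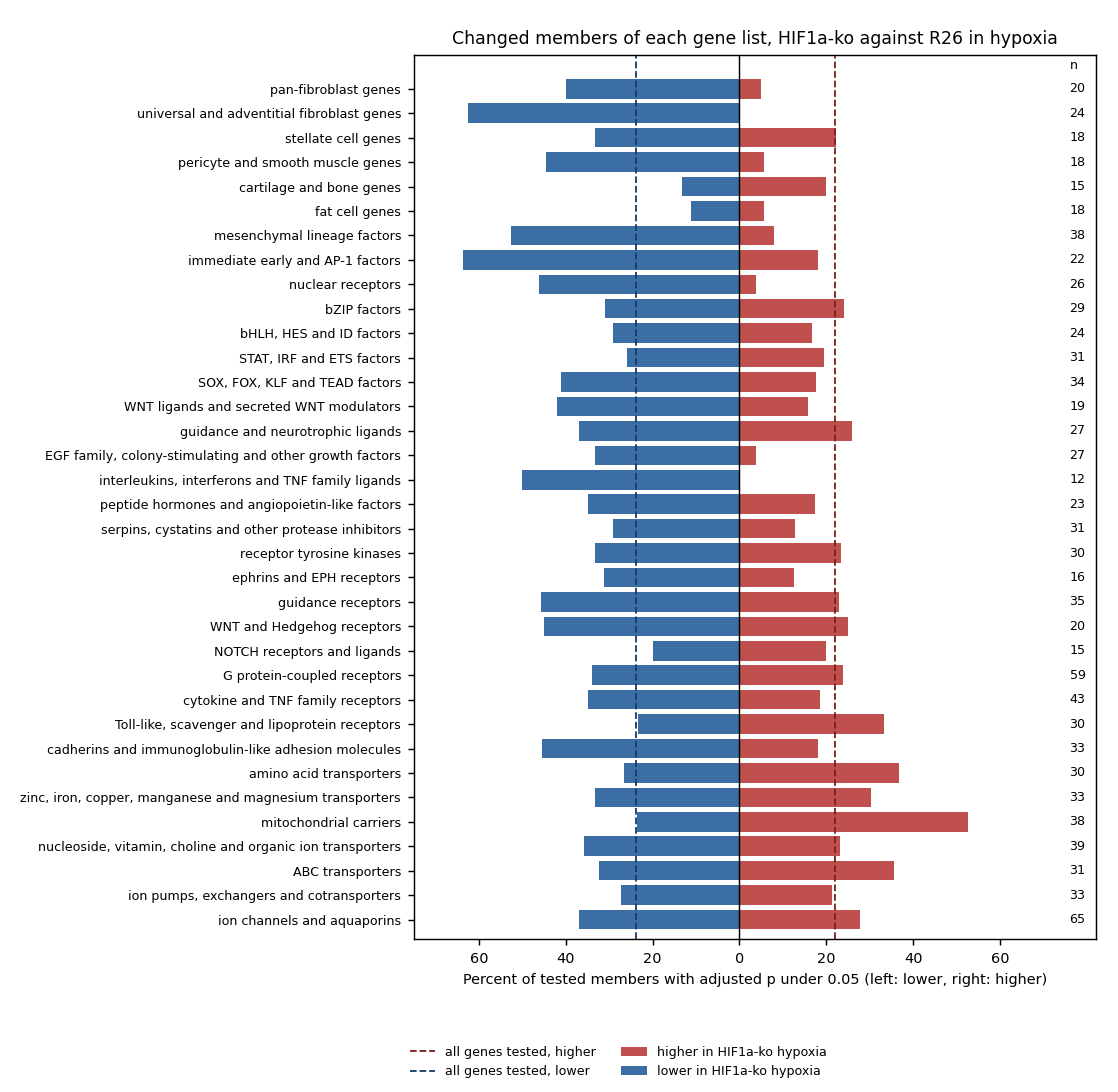
Bars give, for each of 35 gene lists, the percent of tested members that were higher (red, to the right) or lower (blue, to the left) in HIF1a-ko hypoxia, with the number tested at the right edge. Dashed lines mark the shares over all genes, 22% higher and 23.8% lower; mitochondrial carriers reach farthest to the right (20 of 38), and the immediate early and AP-1 factors (14 of 22) and adventitial fibroblast genes (15 of 24) farthest to the left.

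More lineage genes of fibroblasts fell than rose. Of 20 pan-fibroblast genes 8 fell and 1 rose (median log2 fold change -0.14), against 23.8% lower and 22% higher of all genes. Of 24 genes of universal and adventitial fibroblasts, the cells around vessels regarded as a reserve population, 15 fell and none rose by edgeR (median -0.46). No further member of that list was higher at an unadjusted p under 0.05, and DESeq2 called 0 higher. With the shallower libraries alone, or with depth class as a term, 1 member was higher. In bulk RNA, fewer cells of a type and less RNA per cell cannot be told apart, and this holds for every lineage gene below. The summed fibroblast and stellate cell markers were 20000, 19950 and 21500 CPM in R26 hypoxia and 14060, 13590 and 13800 CPM in HIF1a-ko hypoxia. Most of that sum comes from Col1a1, at 5796, 5784 and 6736 CPM in R26 hypoxia and 3974, 3611 and 3732 CPM in HIF1a-ko hypoxia, and Col1a2, at 6628, 6312 and 6970 CPM and 3468, 3498 and 3584 CPM. Of the 12 markers 6 were lower, Pdgfra (-1.70), Col1a2 (-0.92), Col1a1 (-0.69), Col3a1 (-0.65), Pdpn (-0.62) and Vim (-0.28), and Acta2 was higher (0.54). Pdgfrb, Thy1, Dcn, Lum and Des were not called.

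Pdgfra, the receptor that defines most fibroblasts (chr5:75152292-75198215, forward strand), had 667, 682 and 713 CPM in R26 hypoxia, 200.2, 216 and 219.5 CPM in HIF1a-ko hypoxia (log2 fold change -1.70 ± 0.05 with adjusted p = 5.33e-08) and 485, 482 and 493 CPM in R26 normoxia. All HIF1a-ko libraries were below all 6 control-guide libraries. Its sister receptor Pdgfrb, at 392, 392 and 434 CPM and 389.7, 361 and 382 CPM, did not pass the test (log2 fold change -0.10 ± 0.05 with adjusted p = 0.158). Col3a1, a fibrillar collagen, stood at 767, 835 and 754 CPM and 459, 527 and 510.5 CPM (log2 fold change -0.65 ± 0.07 with adjusted p = 4.88e-05). Pdpn, podoplanin, a surface glycoprotein of activated fibroblasts, stood at 178, 170.0 and 178 CPM and 114, 113 and 117 CPM (log2 fold change -0.62 ± 0.04 with adjusted p = 2.80e-06). Both had groups that did not overlap. The other pan-fibroblast genes that fell were Lrp1, Mmp2, Prrx1, Vim and Col5a1, with log2 fold changes of -0.47 to -0.17. Fbln2, fibulin-2, was the 1 higher member (4537, 4446 and 4922 CPM against 5473, 5188 and 5111 CPM; log2 fold change 0.18 ± 0.06 with adjusted p = 0.0236). That call was lost without HIF1a-ko hypoxia 1 or 2 (adjusted p = 0.0644 and 0.0504) and without R26 hypoxia 1 or 2 (0.0773 and 0.0965), while 2 members were higher without R26 hypoxia 3 and 4 with the shallower libraries alone.

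Among the adventitial genes Islr, meflin, a surface protein of stromal progenitors, had the lowest value (log2 fold change -2.85). It shares 5.05% of its 50-base windows with Islr2, so its count is slightly uncertain. Igfbp4, which binds insulin-like growth factors (chr11:99041244-99054392, forward strand), had 628, 618 and 671 CPM in R26 hypoxia, 214, 185 and 214 CPM in HIF1a-ko hypoxia (log2 fold change -1.65 ± 0.07 with adjusted p = 1.66e-07) and 397, 412 and 428 CPM in R26 normoxia. It was thus highest in control-guide cells at low oxygen and lowest in Hif1a-guide cells. Col15a1, a collagen next to basement membranes, stood at 101, 128 and 88.8 CPM and 35.9, 38.8 and 37.1 CPM (log2 fold change -1.504 ± 0.12 with adjusted p = 9.19e-06), without overlap. Smoc2, Cd248, Ly6a, Gas1, Mfap5, Has1, Gsn, Fstl1, Gas6, Igfbp6, Ackr3 and Cd34 also fell, by 1.14 (Smoc2) down to 0.25 (Cd34) on the log2 scale. Pi16, Dpp4 and Dpt, which define the population in tissue, did not pass the test.

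Of 18 stellate cell genes 6 fell and 4 rose (median 0.32, but -0.04 by DESeq2 and 0.08 without R26 hypoxia 3, with 7 higher in the shallower libraries alone). Angptl6, a secreted angiopoietin-like protein (chr9:20873808-20879727, reverse strand), had 1.37, 1.39 and 1.503 CPM in R26 hypoxia and 14.1, 11.4 and 10 CPM in HIF1a-ko hypoxia (log2 fold change 3.05 ± 0.16 with adjusted p = 5.15e-07). It was near 1 CPM in every control-guide library, normoxia included (1.13, 1.25 and 1.42 CPM). Its exons overlap A230050P20Rik on the other strand over 16.8% of their length. Lhx2, a homeobox factor tied to the resting state of stellate cells in liver, rose at a low level, from 0.0653, 0.219 and 0.0473 CPM to 0.656, 0.606 and 0.814 CPM (log2 fold change 2.70 ± 0.52 with adjusted p = 0.00218). Nes, the intermediate filament nestin, stood at 5.35, 4.75 and 3.66 CPM against 7.45, 8.42 and 10 CPM (log2 fold change 0.91 ± 0.17 with adjusted p = 0.0016), and the growth factor Fgf7 rose by 0.23 on the log2 scale. Hand2, a basic helix-loop-helix factor of stellate and other mesenchymal cells, stood at 130.1, 124 and 80.2 CPM against 34, 38.4 and 40.6 CPM (log2 fold change -1.56 ± 0.20 with adjusted p = 0.000145). The deeper library R26 hypoxia 3 was the lowest of its group and still above all HIF1a-ko libraries, and 19.6% of Hand2's exon length overlaps Hand2os1 on the other strand. Hgf, described with the growth factors, and Bambi, Cygb and Ecm1 fell too, with log2 fold changes of -1.24, -0.82 and -0.73 for the last 3.

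Of 18 pericyte and smooth muscle genes 8 fell and 1 rose (median -0.26). Rgs4, a brake on G protein signalling in pericytes (chr1:169741477-169747642, reverse strand), was counted at 15.6, 15.8 and 14.6 CPM and 2.75, 3.07 and 3.34 CPM (log2 fold change -2.33 ± 0.09 with adjusted p = 1.58e-07). The contractile filament genes Lmod1 (25.2, 20.7 and 22.2 CPM against 10.9, 9.39 and 12.7 CPM; log2 fold change -1.04 ± 0.11 with adjusted p = 5.67e-05) and Smtn (-0.71) fell as well, as did Ndufa4l2, Notch3, Cnn1, Myl9 and Tagln. Exons of Smtn overlap Gm11946 on the other strand over 17.2% of their length. Acta2, smooth muscle actin, is outside this list and was higher (log2 fold change 0.54). It stood at 838, 736 and 786 CPM in R26 hypoxia and 1077, 1075 and 1276 CPM in HIF1a-ko hypoxia. The 1 higher member was Mcam, an adhesion molecule (log2 fold change 0.90 ± 0.26 with adjusted p = 0.0179), which did not pass without library 2 or 3 of HIF1a-ko hypoxia (adjusted p = 0.0525 and 0.0616); with the shallower libraries alone 3 members were higher. For 15 cartilage and bone genes the median was 0.13, but -0.17 by DESeq2 and of either sign without single libraries. Of these genes 3 rose and 2 fell, together 33.3% against 45.8% of all genes. Besides Matn3 these were Omd, osteomodulin (0.62), Bmper, a modulator of bone morphogenetic proteins (0.51), Matn2 (396, 421 and 407 CPM against 231, 250.4 and 230.5 CPM; log2 fold change -0.78 ± 0.05 with adjusted p = 1.94e-06) and Cilp (-1.60). The lower count was 1 without any 1 of HIF1a-ko hypoxia 1, HIF1a-ko hypoxia 3, R26 hypoxia 1 and R26 normoxia 1.

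Of 18 fat cell genes 2 fell and 1 rose, together 16.7% against 45.8% of all genes. Their median was -0.34, but -0.02 without R26 hypoxia 1 and -0.04 without HIF1a-ko hypoxia 1. It was -0.21 without R26 hypoxia 2 and -0.64 without R26 hypoxia 3. Lipe, hormone-sensitive lipase, stood at 24.1, 21.9 and 19 CPM against 7.33, 12.1 and 10.5 CPM (log2 fold change -1.12 ± 0.18 with adjusted p = 0.000728), and Pnpla2, adipose triglyceride lipase, at 41.1, 35.4 and 25.1 CPM against 22.3, 25.2 and 25.1 CPM (log2 fold change -0.48 ± 0.17 with adjusted p = 0.0383), the latter with overlapping groups. Fabp5, a fatty acid binding protein, stood at 21.6, 19.2 and 13.7 CPM against 34.01, 37.1 and 41.1 CPM (log2 fold change 1.047 ± 0.20 with adjusted p = 0.00182). Fat cell markers differ between depth classes as given above, and their part in these results was not tested. With the shallower libraries alone 6 members were lower, and the lower count was 1 without any single HIF1a-ko library, without R26 hypoxia 1 or 2, or without R26 normoxia 2. The higher count was 2 without R26 normoxia 3. Fabp5 shares 5.48% of its 50-base windows with Gm6166, and 15.6% of Lipe's exon length overlaps 4732471J01Rik on the other strand.

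Of 204 transcription factors tested 115 changed (56.4%, against 45.8% of all genes and 52.5% of protein-coding genes), 84 lower and 31 higher. The lower share was 41.2%, against 23.8% of all genes, a difference given here as a description.

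Of 38 factors of the mesenchymal lineage, which set and hold fibroblast identity, 20 fell and 3 rose (median -0.41). Prrx2, a paired-related homeobox factor of mesenchyme (chr2:30834972-30881251, forward strand), had 34.1, 31.7 and 33.6 CPM in R26 hypoxia and 11.9, 9.47 and 10.6 CPM in HIF1a-ko hypoxia (log2 fold change -1.64 ± 0.11 with adjusted p = 2.59e-06). Snai1, the repressor Snail of the epithelial-mesenchymal switch, stood at 41.2, 46.6 and 51.9 CPM and 18.9, 14.98 and 17.4 CPM (log2 fold change -1.45 ± 0.11 with adjusted p = 6.57e-06), with 26.01, 28.7 and 30.9 CPM in normoxia. Both factors were lower in every HIF1a-ko library than in any control-guide library. Wt1, the zinc finger factor of mesothelium and stellate cell precursors, stood at 66.3, 74.3 and 70.8 CPM and 31.3, 26.7 and 27.2 CPM (log2 fold change -1.31 ± 0.07 with adjusted p = 6.89e-07), without overlap. The 10 mesothelial markers, Wt1 itself included, summed to 250.6 to 276.2 CPM in R26 hypoxia and 183.6 to 198 CPM in HIF1a-ko hypoxia. Of these, Krt19 (-1.62) and Wt1 were lower and Upk3b (1.15) and Gpm6a (0.43) higher. Bnc1, the largest of them, was not called (log2 fold change -0.03), nor was Msln. The sum is thus no separate measure beside Wt1, and the part of mesothelial cells in the Wt1 result was not tested. Runx1, Tbx18, Osr1, Osr2, Zeb1, Zeb2, Hic1, Gata6, Foxf2, Meis1, Meis2, Twist1, Snai2, Prrx1, Runx2 and Tbx3 were among the others that fell, from -1.14 for Osr2 to -0.21 for Tbx3. Irx3, an Iroquois homeobox factor, rose (4.31, 4.32 and 2.99 CPM against 7.50, 6.99 and 7.02 CPM; log2 fold change 0.89 ± 0.16 with adjusted p = 0.00144), and so did Foxc1 (0.42) and Msx1 (0.35). The number of higher members was 5 without R26 hypoxia 3, and Msx1 lost its call without any single hypoxia library other than R26 hypoxia 3 (adjusted p = 0.0553 to 0.122).

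Immediate early genes are switched on within minutes of a growth or stress signal, and with the AP-1 family they relay such signals to slower genes. Of 22 such factors 14 fell and 4 rose (median -0.44). Maff, a small MAF protein without an activation domain, had 51.1, 48.4 and 41.7 CPM in R26 hypoxia, 13.9, 11.3 and 11.7 CPM in HIF1a-ko hypoxia (log2 fold change -1.93 ± 0.11 with adjusted p = 1.18e-06) and 27.3, 28.8 and 23.4 CPM in normoxia. Egr1, a zinc finger factor of the serum response, stood at 115, 155 and 122 CPM and 48.05, 57.8 and 49.04 CPM (log2 fold change -1.34 ± 0.12 with adjusted p = 1.61e-05), with normoxia at 63.2, 72.2 and 72.7 CPM. In both cases control-guide cells at low oxygen had the highest level. Junb, an AP-1 subunit, stood at 134, 142 and 112 CPM and 53.03, 59.1 and 50.3 CPM (log2 fold change -1.26 ± 0.10 with adjusted p = 1.02e-05), and Fos, another, at 9.92, 13.3 and 11.1 CPM and 3.09, 6.15 and 4.87 CPM (log2 fold change -1.28 ± 0.27 with adjusted p = 0.00323). Egr2, Egr3, Klf2, Fosb, Fosl1, Fosl2, Ier2, Nr4a1, Srf and Klf6 were the remaining lower members. The higher ones were Klf4, a zinc finger factor of growth arrest (90.5, 90.6 and 102 CPM against 174, 137 and 147 CPM; log2 fold change 0.69 ± 0.10 with adjusted p = 0.000429), Jdp2, a repressor of AP-1 (0.74), Atf3 (1.25) and Klf10 (0.29). Jun and Jund did not pass the test.

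**Figure D3:**
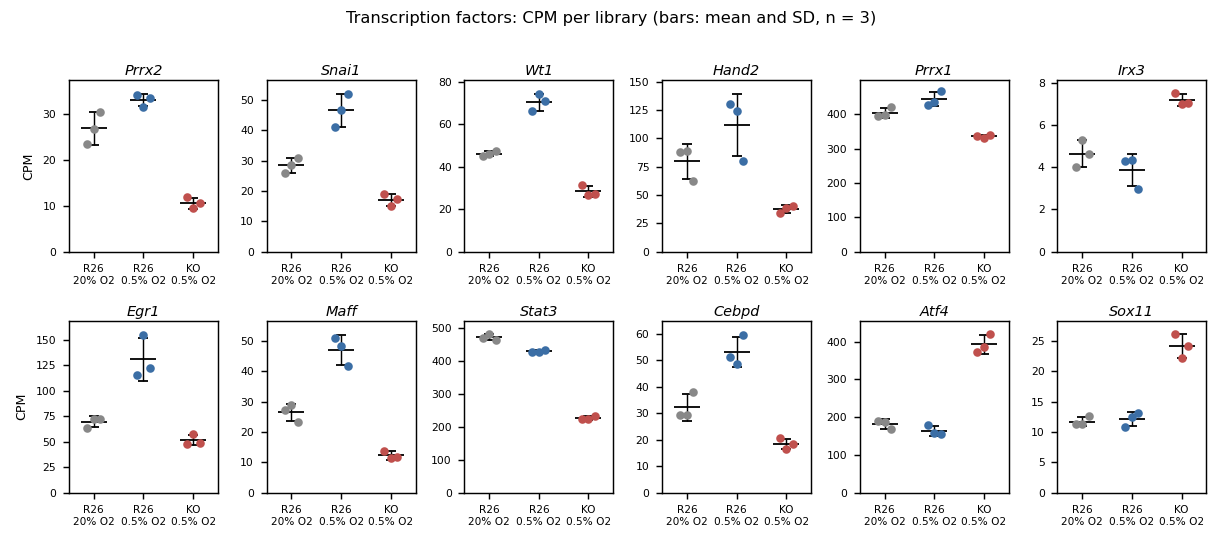
Points are CPM of single libraries for 12 transcription factors in R26 cells at 20% oxygen (grey), R26 cells at 0.5% oxygen (blue) and HIF1a-ko cells, written KO, at 0.5% oxygen (red), with bars for mean and SD (n = 3), on axes that start at 0. In each panel the red points do not overlap the blue ones; Prrx2, Snai1, Wt1 and Stat3 are lower, and Irx3, Atf4 and Sox11 higher, in the Hif1a-guide libraries.

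Nuclear receptors bind hormones, vitamins and lipids and act on DNA directly. Of 26 tested 12 fell and 1 rose (median -0.27). The retinoid and vitamin D arms, both linked to the resting state of stellate cells, were among the lower ones: Vdr, the vitamin D receptor, at 29.8, 33.1 and 34.1 CPM against 18.9, 18.95 and 19.2 CPM (log2 fold change -0.77 ± 0.07 with adjusted p = 1.25e-05) and Rara, a retinoic acid receptor, at 61.8, 66.7 and 68.4 CPM against 44.4, 42.6 and 42.3 CPM (log2 fold change -0.61 ± 0.06 with adjusted p = 3.92e-05). Nr1h3, the oxysterol receptor LXR-alpha, stood at 10.2, 10.1 and 8.58 CPM and 4.66, 5.24 and 4.50 CPM (log2 fold change -1.003 ± 0.12 with adjusted p = 9.24e-05). None of these 3 had overlapping groups. Rorb, Thra, Thrb, Nr2c1, Nr2c2, Nr1h2, Rora, Rarg and Rxra made up the other lower members, and Rarb, Ppard and Nr3c1, the glucocorticoid receptor, did not pass. The 1 higher member, Esr1 (log2 fold change 0.30 ± 0.10 with adjusted p = 0.038), lost its call without any 1 of HIF1a-ko hypoxia 1, HIF1a-ko hypoxia 2, R26 hypoxia 1, R26 hypoxia 3, R26 normoxia 1 and R26 normoxia 2.

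Members of the basic leucine zipper (bZIP) family went both ways. Of 29 tested 9 fell and 7 rose (median 0.08, and 11 higher with the shallower libraries alone). Atf4, the factor whose translation rises when amino acids are short (chr15:80255184-80257541, forward strand), had 179, 158 and 155 CPM in R26 hypoxia and 374, 386 and 419.9 CPM in HIF1a-ko hypoxia (log2 fold change 1.26 ± 0.08 with adjusted p = 1.34e-06). Its relative Atf5 stood at 149.8, 133 and 140.0 CPM and 322, 299 and 321 CPM (log2 fold change 1.16 ± 0.06 with adjusted p = 3.73e-07), and Ddit3, the stress factor CHOP, at 44.8, 44.1 and 41.6 CPM and 89.2, 88.03 and 80.9 CPM (log2 fold change 0.98 ± 0.06 with adjusted p = 1.38e-06). The rises were 2.40-fold, 2.23-fold and 1.98-fold, and no groups overlapped, which was a condition for naming them. Cebpg, Atf6, Atf6b and Creb5 were the other higher members, Creb5 from 0.696, 0.895 and 1.08 CPM to 5.46, 5.26 and 4.87 CPM (log2 fold change 2.53 ± 0.19 with adjusted p = 4.59e-06). On the other side Cebpd, a CCAAT/enhancer-binding factor of the acute phase, stood at 51.2, 48.7 and 59.6 CPM and 20.4, 16.4 and 18.4 CPM (log2 fold change -1.53 ± 0.13 with adjusted p = 1.07e-05). Maf stood at 209.5, 217 and 211 CPM and 114, 91.5 and 94.9 CPM (log2 fold change -1.08 ± 0.08 with adjusted p = 5.49e-06), and Cebpb, a relative of Cebpd, fell by 0.87 on the log2 scale. Bach2, Creb3l2, Nfil3, Xbp1 and Creb3 fell as well. Exons of Cebpd overlap Spidr on the other strand over 15% of their length, and Atf7, also lower (-0.88), shares 11.2% of its 50-base windows with Gm28047.

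ATF4 binds composite elements that combine a CCAAT/enhancer-binding protein site with an ATF site, and TGATGNAA, where N is any base, is the usual pattern of this amino acid response element. Among the 15 highest genes, Matn3, Chd5, Pcdh19, Lmo7, Rad51ap1, Chaf1b and Pclaf hold no such match in their RefSeq promoters. Promoters of 4 others of the 15 are shown because they hold a match, with the matches in capitals on either strand. Each runs from 250 bases before to 30 bases after the start of the gene in RefSeq on GRCm38.p6, 5′ to 3′ along the gene's strand. They are Slc7a11, the cystine importer (chr3:50443584-50443863, minus strand), Asns, asparagine synthetase (chr6:7693180-7693459, minus strand), Chac1, a glutathione-cleaving enzyme (chr2:119350992-119351271, plus strand), and Trib3, a pseudokinase (chr2:152344031-152344310, minus strand).
Slc7a11: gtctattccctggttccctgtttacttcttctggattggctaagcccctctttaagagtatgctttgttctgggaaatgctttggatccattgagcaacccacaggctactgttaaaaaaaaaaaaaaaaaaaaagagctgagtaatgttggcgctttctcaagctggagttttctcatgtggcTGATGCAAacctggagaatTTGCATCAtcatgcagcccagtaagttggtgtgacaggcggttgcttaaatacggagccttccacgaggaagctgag
Asns: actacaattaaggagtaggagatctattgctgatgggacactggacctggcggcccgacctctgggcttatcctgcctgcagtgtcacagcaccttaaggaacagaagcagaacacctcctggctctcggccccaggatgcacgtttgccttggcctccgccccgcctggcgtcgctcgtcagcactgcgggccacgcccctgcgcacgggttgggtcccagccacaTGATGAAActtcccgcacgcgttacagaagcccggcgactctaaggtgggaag
Chac1: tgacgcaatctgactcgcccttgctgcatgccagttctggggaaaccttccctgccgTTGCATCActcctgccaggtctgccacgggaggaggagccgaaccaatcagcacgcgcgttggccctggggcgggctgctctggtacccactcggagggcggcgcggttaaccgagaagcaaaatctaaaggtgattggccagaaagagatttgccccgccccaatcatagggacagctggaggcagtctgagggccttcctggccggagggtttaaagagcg
Trib3: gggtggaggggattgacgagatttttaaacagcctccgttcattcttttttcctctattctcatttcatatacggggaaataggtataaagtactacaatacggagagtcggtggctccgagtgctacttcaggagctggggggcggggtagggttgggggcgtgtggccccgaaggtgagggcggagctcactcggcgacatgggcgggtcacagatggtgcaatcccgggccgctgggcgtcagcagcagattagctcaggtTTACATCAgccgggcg
Slc7a11 has 2 matches, which begin 66 and 47 bases before the start and face opposite ways. The match of Asns begins 23 bases before the start, that of Chac1 193 bases before, and that of Trib3 at base 15 of the transcript.

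Chac1 had 3.50, 2.21 and 2.80 CPM in R26 hypoxia and 18.99, 17.6 and 21.6 CPM in HIF1a-ko hypoxia (log2 fold change 2.77 ± 0.19 with adjusted p = 2.69e-06), and 2.24, 3.18 and 2.84 CPM in normoxia. Asns stood at 43.1, 38.3 and 45.1 CPM and 287, 261 and 303 CPM (log2 fold change 2.75 ± 0.09 with adjusted p = 5.97e-08). Only the Hif1a-guide libraries were high for Chac1, while Asns was also a little higher in normoxia (56.7, 53.1 and 63.2 CPM) than in R26 hypoxia. Over 11972 tested genes with a RefSeq promoter (250 bases before to 50 after the start, both strands), TGATGNAA was found in 2.81%. The share was 3.74% of higher genes and 2.01% of lower genes, and 5.32% and 2.26% of those with a log2 fold change of at least 1 in size. The hypoxia core ACGTG was found in 27.8% of all, 30.8% of higher and 27.5% of lower genes, and in 25.6% and 24.9% of those past that fold. The AP-1 pattern TGANTCA was found in 6.77% of all, 5.94% of higher and 6.92% of lower genes, and in 8.06% and 9.57% of those past that fold. A match is a stretch of letters, not a site shown to be bound. A gene was counted where any of its RefSeq starts held a match, so genes with more starts had more chances. Starts that are not in RefSeq were not searched.

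The remaining factors stand in 3 lists. Of 31 STAT, IRF and ETS factors 8 fell and 6 rose, together 45.2% against 45.8% of all genes. Their median was -0.04, and -0.07 to -0.02 without any single library. Stat3, which carries the signal of interleukin-6 type cytokines (chr11:100885098-100939540, reverse strand), had 428, 426 and 432 CPM in R26 hypoxia, 223, 222 and 233 CPM in HIF1a-ko hypoxia (log2 fold change -0.93 ± 0.04 with adjusted p = 2.21e-07) and 471, 483 and 465 CPM in normoxia. The replicates of each group lay within a few percent of each other. Ets2, a target and effector of growth factor signalling, rose (63.6, 55.3 and 64.4 CPM against 95.7, 85.5 and 95.4 CPM; log2 fold change 0.59 ± 0.07 with adjusted p = 6.86e-05), which brought it to its normoxia level of 91.4, 91.5 and 92.5 CPM. Elf1 (-0.56), Stat6 (-0.47) and Etv6 (-0.39) fell, and Erf (0.40), Etv4 (0.38) and Fli1 (1.48) rose.

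Of 34 SOX, FOX, KLF and TEAD factors 14 fell and 6 rose (median -0.21). Within the TEAD family, the DNA-binding partners of YAP, members went opposite ways. Tead3 stood at 41.6, 44.6 and 47.04 CPM in R26 hypoxia and 25, 22.9 and 22.7 CPM in HIF1a-ko hypoxia (log2 fold change -0.92 ± 0.06 with adjusted p = 2.69e-06), while Tead4 stood at 3.11, 3.0 and 3.53 CPM and 8.78, 8.12 and 7.41 CPM (log2 fold change 1.33 ± 0.11 with adjusted p = 7.67e-06). Tead1 and Tead2 fell by 0.31 and 0.42 on the log2 scale. In the SOX family Sox11, a factor of immature neural and mesenchymal cells, stood at 10.8, 12.4 and 13.05 CPM and 26.2, 22.2 and 24.2 CPM (log2 fold change 1.000 ± 0.09 with adjusted p = 2.25e-05), and Sox5 at 25.3, 27.7 and 28.4 CPM and 16.3, 17 and 15.2 CPM (log2 fold change -0.75 ± 0.07 with adjusted p = 1.87e-05). Neither gene had overlapping groups. Klf13 stood at 75.5, 79.04 and 69.4 CPM and 42.2, 42.9 and 44.5 CPM (log2 fold change -0.79 ± 0.06 with adjusted p = 4.16e-06). The forkhead factors Foxo1, Foxo3 and Foxo4, which insulin signalling keeps out of the nucleus, all fell, with values of -0.53, -0.52 and -0.53. Gli1, a factor and a target gene of Hedgehog signalling, rose from 0.261, 0.0995 and 0.142 CPM to 1.29, 1.10 and 0.977 CPM (log2 fold change 2.76 ± 0.35 with adjusted p = 0.00017), so it was low in all libraries.

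Of 24 basic helix-loop-helix, HES and ID factors 7 fell and 4 rose (median -0.18), together 45.8% against 45.8% of all genes. Srebf2, the master factor of cholesterol synthesis, stood at 211, 185 and 225 CPM in R26 hypoxia and 347, 305 and 329 CPM in HIF1a-ko hypoxia (log2 fold change 0.66 ± 0.07 with adjusted p = 7.59e-05), with its normoxia level of 273, 275 and 282 CPM between the 2 groups. Among the inhibitors of differentiation Id2 fell (58.7, 66.9 and 67.8 CPM against 44.97, 42.05 and 40.2 CPM; log2 fold change -0.60 ± 0.08 with adjusted p = 0.000165) and Id1 rose slightly (0.20). Hes6 fell (-0.34) and Arnt2, a partner of several PAS domain factors, rose (0.29). Tfeb, a factor of lysosome genes, fell by 0.45 on the log2 scale.

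Secreted factors changed in 69 of 139 tested cases (49.6%, against 45.8% of all genes and 52.5% of protein-coding genes), 50 lower and 19 higher. The share called was thus near the background. The lower calls were spread over ligands of several families.

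Of 19 WNT ligands and secreted WNT modulators 8 fell and 3 rose (median -0.45, but -0.18 without HIF1a-ko hypoxia 1, -0.28 without R26 hypoxia 1 and -0.26 by DESeq2), and 5 were lower without HIF1a-ko hypoxia 2 or without R26 hypoxia 2. Wnt4, a ligand active in kidney and mesenchyme, had 22.7, 26.6 and 25.5 CPM in R26 hypoxia, 9.75, 7.48 and 7.80 CPM in HIF1a-ko hypoxia (log2 fold change -1.58 ± 0.11 with adjusted p = 4.05e-06) and 6.76, 6.20 and 7.04 CPM in normoxia. The 3 R26 hypoxia libraries were thus the high ones, and the HIF1a-ko libraries lay just above normoxia. The antagonists Dkk3 (53.1, 50.4 and 46.3 CPM against 21.9, 28.1 and 26.7 CPM; log2 fold change -0.97 ± 0.10 with adjusted p = 3.60e-05) and Sfrp1 (-0.73) fell, with Sfrp2, Sfrp4, Wnt5a and Wnt16. Dkk2, a further antagonist, had 3.94, 4.38 and 3.81 CPM in R26 hypoxia and 0.0521, 0.151 and 0.183 CPM in HIF1a-ko hypoxia, and 1.63, 2.04 and 2.20 CPM in normoxia (log2 fold change -5.05 ± 0.37 with adjusted p = 4.48e-06). It was thus near 0 in the Hif1a-guide libraries alone. Rspo2, Frzb and Wnt10b rose, all at low levels.

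Axon guidance molecules also steer fibroblasts and vessels. Of 27 guidance and neurotrophic ligands 10 fell and 7 rose (median -0.28, but -0.16 by DESeq2 or without HIF1a-ko hypoxia 3, and -0.17 without R26 hypoxia 2). Ptn, pleiotrophin, a heparin-binding growth factor (chr6:36714929-36810220, reverse strand), had 1485, 1492 and 1456 CPM in R26 hypoxia, 545, 565 and 540.2 CPM in HIF1a-ko hypoxia (log2 fold change -1.43 ± 0.04 with adjusted p = 5.33e-08) and 1824, 1858 and 1891 CPM in normoxia. Slit3, a ligand of ROBO receptors (chr11:35121224-35708507, forward strand), stood at 979.7, 1073 and 1054 CPM and 396, 392 and 389.7 CPM (log2 fold change -1.40 ± 0.05 with adjusted p = 1.20e-07), with 929, 988 and 1023 CPM in normoxia. Sema3d, a repelling semaphorin, stood at 183, 188 and 214 CPM and 77.5, 78.3 and 82.5 CPM (log2 fold change -1.30 ± 0.08 with adjusted p = 1.44e-06). In all 3 cases the HIF1a-ko libraries were far below the control-guide libraries at either oxygen level. Ntn4, a netrin of basement membranes, went the other way, with 16.5, 16.4 and 14.3 CPM and 39.3, 45.4 and 40.4 CPM (log2 fold change 1.41 ± 0.08 with adjusted p = 8.51e-07). Sema3e (0.43) and Manf, a factor released in stress of the endoplasmic reticulum (0.49), rose as well. Bdnf, a neurotrophin, rose by 0.19 on the log2 scale.

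Of 27 growth factors of the EGF, colony-stimulating and other families 9 fell and 1 rose (median -0.14). Together these are 37%, against 45.8% of all genes. Vegfd, the ligand of lymphatic vessel growth (chrX:164373378-164402650, forward strand), had 533, 557 and 599 CPM in R26 hypoxia, 171, 169 and 171 CPM in HIF1a-ko hypoxia (log2 fold change -1.72 ± 0.06 with adjusted p = 5.88e-08) and 523, 531 and 569.6 CPM in normoxia. Control-guide cells thus had about the same level at both oxygen levels. Fgf10, a mesenchymal factor for epithelial growth including that of the embryonic pancreas, stood at 33.4, 29.4 and 39.02 CPM and 7.02, 5.36 and 8.45 CPM (log2 fold change -2.29 ± 0.17 with adjusted p = 4.16e-06), with 16.9, 14.4 and 16.3 CPM in normoxia. Hgf, hepatocyte growth factor, stood at 51.2, 51.7 and 62.4 CPM and 21.8, 22.02 and 24.6 CPM (log2 fold change -1.28 ± 0.09 with adjusted p = 4.64e-06), and 6.02% of its 50-base windows are shared with Gm43489. Both were highest in R26 hypoxia and lowest in HIF1a-ko hypoxia. Kitl, stem cell factor, was the 1 higher member (0.30), which did not pass without R26 hypoxia 1 (adjusted p = 0.0726), R26 hypoxia 2 (0.0769) or HIF1a-ko hypoxia 3 (0.0584). Heparin-binding EGF (Hbegf), Areg and Csf1 did not pass.

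Of 12 interleukins and TNF family ligands that could be tested 6 fell and none rose by edgeR (median -0.44, but 0.15 by DESeq2, 0.19 without the filter and -0.41 to -0.24 without any single library). A single member, Tslp, was higher at an unadjusted p under 0.05, DESeq2 called 0 higher, and 1 was called without R26 hypoxia 3. Il33, an alarmin of stromal cells, stood at 19.4, 21.6 and 22.5 CPM in R26 hypoxia and 9.45, 11.2 and 10.2 CPM in HIF1a-ko hypoxia (log2 fold change -1.046 ± 0.09 with adjusted p = 1.51e-05). Tnfsf9, the ligand of 4-1BB, stood at 18.7, 18.3 and 17.3 CPM and 8.18, 9.41 and 8.22 CPM (log2 fold change -1.07 ± 0.11 with adjusted p = 4.35e-05), with 7.19, 8.22 and 6.11 CPM in normoxia. Il33 was thus below and Tnfsf9 close to the normoxia level. Il16, a chemoattractant of CD4+ cells, stood at 24.97, 21.6 and 26.7 CPM and 11.6, 11.1 and 12.8 CPM (log2 fold change -1.048 ± 0.09 with adjusted p = 1.53e-05), and Clcf1, a cytokine of the interleukin-6 family, fell by 0.73 on the log2 scale. Exons of Il16 overlap Stard5 on the other strand over 17.4% of their length, and those of Tnfsf9 overlap Gm11110 over 14.9%.

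Of 23 peptide hormones and angiopoietin-like factors 8 fell and 4 rose (median -0.32, but -0.22 by DESeq2). Apln, apelin, a peptide of vessel growth, had 65.8, 59.9 and 59.6 CPM in R26 hypoxia, 25.4, 24.6 and 27.3 CPM in HIF1a-ko hypoxia (log2 fold change -1.26 ± 0.06 with adjusted p = 5.15e-07) and 13.8, 13.1 and 12.6 CPM in normoxia. The Hif1a-guide libraries lay between the control-guide groups. Angptl2 stood at 106, 112 and 107 CPM and 61.6, 65.1 and 57.1 CPM (log2 fold change -0.82 ± 0.05 with adjusted p = 2.03e-06). Gdf15, a hormone released by stressed cells, stood at 5.09, 4.08 and 5.39 CPM and 13, 10.4 and 10.5 CPM (log2 fold change 1.22 ± 0.14 with adjusted p = 6.62e-05), and Fst, the activin antagonist follistatin, at 12.4, 11.8 and 14.01 CPM and 21.1, 19.6 and 22.8 CPM (log2 fold change 0.73 ± 0.08 with adjusted p = 8.66e-05). Both were higher in each Hif1a-guide library than in any control-guide library.

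Of 31 protease inhibitors 9 fell and 4 rose, together 41.9% against 45.8% of all genes. Their median was -0.30, but -0.08 without HIF1a-ko hypoxia 1, -0.14 without R26 hypoxia 2 and -0.18 without R26 hypoxia 1. Serping1, the C1 inhibitor of complement, stood at 18.7, 19.04 and 15.96 CPM in R26 hypoxia and 2.33, 6.02 and 6.01 CPM in HIF1a-ko hypoxia (log2 fold change -1.92 ± 0.31 with adjusted p = 0.0007). The deeper HIF1a-ko library was the lowest of the 6. Serpinb8, an inhibitor that stays in the cell, stood at 17.3, 18.8 and 18.01 CPM and 49.4, 50.3 and 49.7 CPM (log2 fold change 1.46 ± 0.06 with adjusted p = 1.41e-07), with a spread of about 1 CPM within each group. Serpini1, neuroserpin, rose at a lower level (1.20), and Serpinh1, the collagen chaperone HSP47, rose from 932, 906 and 877 CPM to 1148, 1163 and 1191 CPM (log2 fold change 0.37 ± 0.04 with adjusted p = 9.22e-05). Serpina3g (-1.68) and Spock2 (-1.20) fell, and Serpina3g shares 15.5% of its 50-base windows with Serpina3h.

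**Figure D4:**
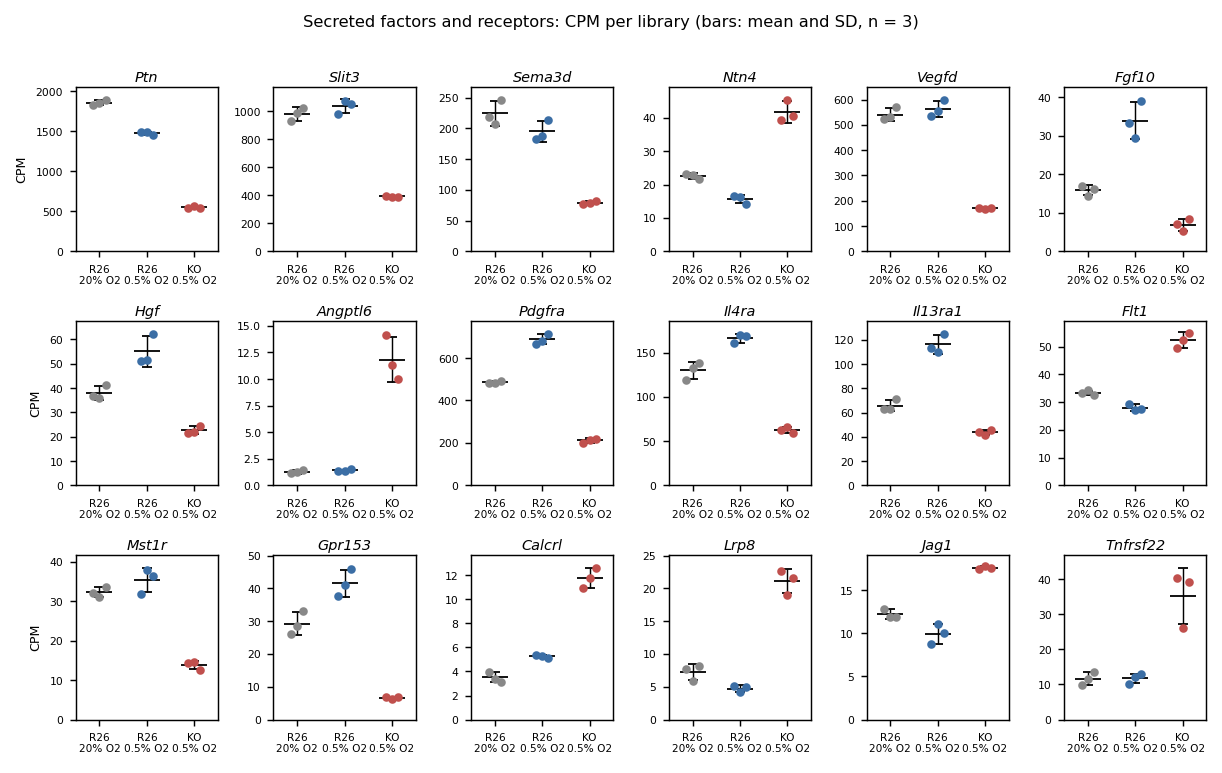
Points are CPM of single libraries for 18 ligands and receptors in R26 cells at 20% oxygen (grey), R26 cells at 0.5% oxygen (blue) and HIF1a-ko cells, written KO, at 0.5% oxygen (red), with bars for mean and SD (n = 3), on axes that start at 0. Red points lie below blue ones for Ptn, Slit3, Sema3d, Vegfd, Fgf10, Hgf, Pdgfra, Il4ra, Il13ra1, Mst1r and Gpr153, and above them for Ntn4, Angptl6, Flt1, Calcrl, Lrp8, Jag1 and Tnfrsf22.

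Receptors changed in 142 of 248 tested cases (57.3%, against 45.8% of all genes and 52.5% of protein-coding genes), 85 lower and 57 higher.

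Of 30 receptor tyrosine kinases 10 fell and 7 rose (median -0.13, but -0.32 without HIF1a-ko hypoxia 3, -0.28 without R26 hypoxia 3 and -0.07 without R26 hypoxia 2). Mst1r, the receptor RON for macrophage-stimulating protein, had 31.9, 37.9 and 36.4 CPM in R26 hypoxia and 14.4, 14.5 and 12.6 CPM in HIF1a-ko hypoxia (log2 fold change -1.35 ± 0.08 with adjusted p = 1.34e-06). Met, the receptor of Hgf and the closest relative of Mst1r, rose slightly (0.22) while its ligand fell. The collagen receptors Ddr1 and Ddr2 went opposite ways, Ddr1 from 156, 144 and 153.1 CPM to 106, 95.2 and 98.04 CPM (log2 fold change -0.60 ± 0.06 with adjusted p = 2.82e-05) and Ddr2 from 585, 608 and 630.3 CPM to 708, 722 and 697 CPM (log2 fold change 0.22 ± 0.04 with adjusted p = 0.00274). Flt1, a receptor of VEGF-A that often acts as a sink, stood at 29.4, 27.1 and 27.4 CPM and 49.5, 52.5 and 55 CPM (log2 fold change 0.90 ± 0.06 with adjusted p = 1.60e-06), and the other VEGF receptors Kdr (1.17) and Flt4 (0.85) also rose. Of 8 endothelial markers Kdr and Egfl7 were higher and Vwf lower, and their sum was 9.407 to 17.68 CPM in R26 hypoxia and 14.05 to 24.04 CPM in HIF1a-ko hypoxia. Their part in the Flt1 result was not tested. Axl (-0.42), Egfr (-0.31), Erbb2 (-0.44) and the insulin receptor Insr (-0.30) fell by less.

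Of 16 ephrins and EPH receptors 5 fell and 2 rose, together 43.75% against 45.8% of all genes. Epha1 stood at 52.6, 49.3 and 61.01 CPM in R26 hypoxia and 23.8, 19.8 and 23.1 CPM in HIF1a-ko hypoxia (log2 fold change -1.29 ± 0.10 with adjusted p = 7.18e-06), Ephb6 at 57.4, 61.5 and 52.9 CPM and 30.4, 34.7 and 31.9 CPM (log2 fold change -0.82 ± 0.08 with adjusted p = 2.62e-05), and Epha4, a receptor of both ephrin classes, at 8.74, 7.90 and 9.24 CPM and 18.3, 17.9 and 19.4 CPM (log2 fold change 1.10 ± 0.10 with adjusted p = 1.58e-05). Their groups did not overlap. Of 35 plexins, semaphorins with membrane anchors and other guidance receptors 16 fell and 8 rose (median -0.17, but -0.10 by DESeq2, -0.11 without HIF1a-ko hypoxia 1 and -0.25 without R26 hypoxia 3). Within the class A plexins, the signalling subunits of semaphorin receptors, Plxna3 fell (119, 131 and 135 CPM against 60.5, 59.1 and 58.9 CPM; log2 fold change -1.11 ± 0.05 with adjusted p = 2.83e-07) and Plxna2 rose (24.1, 27.5 and 25.2 CPM against 47.9, 50.98 and 45.7 CPM; log2 fold change 0.91 ± 0.07 with adjusted p = 6.62e-06). Their coreceptor Nrp1, which also binds VEGF, stood at 223, 211 and 237 CPM and 112, 112 and 121 CPM (log2 fold change -0.96 ± 0.06 with adjusted p = 1.03e-06). Sema6d, an anchored semaphorin, fell from 86.7, 91.5 and 95.9 CPM to 42.9, 45.1 and 43.6 CPM (log2 fold change -1.06 ± 0.05 with adjusted p = 2.46e-07). Sema4g, also anchored, fell by 1.03 on the log2 scale, and Sema5a rose by 0.37. The slit receptors Robo1 and Robo2 did not pass the test, while their ligand Slit3 fell.

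Of 20 WNT and Hedgehog receptors 9 fell and 5 rose (median -0.17, but 0.04 by DESeq2, 0.05 without HIF1a-ko hypoxia 1 and of either sign without other single libraries). Fzd4 stood at 159.7, 159 and 166 CPM in R26 hypoxia and 103, 102 and 111 CPM in HIF1a-ko hypoxia (log2 fold change -0.62 ± 0.04 with adjusted p = 3.40e-06), and Fzd8 at 73.5, 63.1 and 67.3 CPM and 44.99, 44.6 and 45.8 CPM (log2 fold change -0.59 ± 0.06 with adjusted p = 3.14e-05), the latter back at its normoxia level of 44.4, 46.4 and 47.3 CPM. Ptch1, the Hedgehog receptor, fell by 0.43 on the log2 scale, Fzd3 rose by 0.67, Lgr4, a receptor of R-spondins, by 0.39 and Znrf3, a ligase that removes frizzled receptors, by 0.43. Of 15 NOTCH receptors and ligands 3 fell and 3 rose, together 40% against 45.8% of all genes. Jag1, a ligand, stood at 8.79, 11.1 and 10.04 CPM and 17.4, 17.8 and 17.6 CPM (log2 fold change 0.82 ± 0.09 with adjusted p = 5.30e-05), and Notch1, a receptor, at 28.02, 32.4 and 32.6 CPM and 53.9, 51.7 and 52.1 CPM (log2 fold change 0.76 ± 0.07 with adjusted p = 2.22e-05). Notch3, the receptor of mural cells, moved in the other direction, with 19.4, 20.2 and 21.4 CPM and 13.7, 13.1 and 11.4 CPM (log2 fold change -0.67 ± 0.09 with adjusted p = 0.000176), and so did the atypical ligand Dlk1 (-0.58). Exons of Notch1 overlap 0610009E02Rik on the other strand over 10.4% of their length.

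Of 59 G protein-coupled receptors 20 fell and 14 rose (median -0.31, but -0.09 without HIF1a-ko hypoxia 1 and -0.20 without R26 hypoxia 2). Gpr153, an orphan receptor (chr4:152274232-152285337, forward strand), had 37.8, 40.9 and 45.9 CPM in R26 hypoxia, 6.94, 6.36 and 6.76 CPM in HIF1a-ko hypoxia (log2 fold change -2.63 ± 0.11 with adjusted p = 1.58e-07) and 26.1, 28.5 and 33.1 CPM in normoxia. Mrgprf, an orphan of the Mas-related family, stood at 24.4, 22.9 and 32.7 CPM and 4.54, 3.90 and 3.91 CPM (log2 fold change -2.69 ± 0.15 with adjusted p = 7.59e-07). Both are among the 15 lowest genes, and no library of one group reached the other. S1pr3, a receptor of sphingosine-1-phosphate, stood at 15.7, 19.4 and 15.9 CPM and 6.17, 4.49 and 6.39 CPM (log2 fold change -1.58 ± 0.14 with adjusted p = 1.88e-05). Receptors of vessel-active and contractile signals that fell were Bdkrb1 for bradykinin (-1.66), Agtr1a for angiotensin (-1.41), Tbxa2r for thromboxane (-2.04) and Avpr1a for vasopressin (-1.54). The adrenergic receptor Adrb1 rose at a low level (1.82), as did Calcrl, the receptor component for adrenomedullin and calcitonin gene-related peptide (5.37, 5.29 and 5.11 CPM against 10.9, 11.8 and 12.6 CPM; log2 fold change 1.16 ± 0.11 with adjusted p = 1.85e-05). Among adhesion receptors of this class Adgrb2 (5.48, 5.73 and 5.03 CPM against 13.6, 12.6 and 12.5 CPM; log2 fold change 1.25 ± 0.09 with adjusted p = 3.79e-06) and Adgra2, a coactivator of WNT signalling (0.75), rose.

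Of 43 cytokine and TNF family receptors 15 fell and 8 rose (median -0.13, but -0.07 without HIF1a-ko hypoxia 1 or R26 hypoxia 2 and -0.21 without R26 hypoxia 3). Interleukins 4 and 13 act on fibroblasts through a shared receptor made of Il4ra and Il13ra1. Il4ra (chr7:125552120-125579474, forward strand) had 160.3, 169.6 and 169 CPM in R26 hypoxia, 62.2, 66.5 and 59.4 CPM in HIF1a-ko hypoxia (log2 fold change -1.41 ± 0.06 with adjusted p = 2.81e-07) and 119, 132 and 138 CPM in normoxia. Il13ra1 (chrX:36112110-36171259, forward strand) stood at 114, 110.1 and 125 CPM, 44.4, 41.3 and 45.8 CPM (log2 fold change -1.41 ± 0.07 with adjusted p = 4.38e-07) and 63.3, 63.03 and 71.2 CPM in the same order. Both chains were highest in R26 hypoxia and lowest in HIF1a-ko hypoxia, in every library. The decoy receptor Il13ra2 rose but stayed under 1 CPM (0.0870, 0.0597 and 0.132 CPM against 0.281, 0.341 and 0.285 CPM; log2 fold change 1.62 ± 0.42 with adjusted p = 0.0104). The interferon receptors Ifnar1, Ifnar2 and Ifngr1 and the TNF receptor Tnfrsf1a also fell, with values between -0.62 and -0.33. Among the higher receptors Eda2r, a receptor of ectodysplasin and a known p53 target, stood at 79.9, 81.01 and 86.9 CPM and 141, 142 and 138 CPM (log2 fold change 0.76 ± 0.05 with adjusted p = 3.38e-06). The TRAIL decoy receptors Tnfrsf22 (10.2, 12.1 and 12.9 CPM against 40.3, 26.03 and 39.1 CPM; log2 fold change 1.58 ± 0.18 with adjusted p = 7.57e-05) and Tnfrsf23 (1.17) rose too, and they share 27.4% and 18% of their 50-base windows, so a rise of 1 could enter the count of the other.

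Of 30 Toll-like, scavenger and lipoprotein receptors 10 rose and 7 fell (median 0.03, and -0.05 to 0.15 without any single library). Lrp8, the apolipoprotein E receptor 2 that also takes up selenoprotein P, stood at 5.09, 4.18 and 4.89 CPM in R26 hypoxia and 22.7, 19.1 and 21.6 CPM in HIF1a-ko hypoxia (log2 fold change 2.16 ± 0.14 with adjusted p = 2.02e-06). Sort1, sortilin, stood at 14.4, 13.5 and 10.6 CPM and 24.2, 26.9 and 28.8 CPM (log2 fold change 1.06 ± 0.12 with adjusted p = 6.50e-05), short of its normoxia level of 31.5, 33.6 and 29.7 CPM. Sorl1 (1.11), Vldlr (0.23) and, at a low level, Lrp2 (2.33) rose as well. Tlr5, the flagellin receptor, fell (22.6, 24.1 and 25.6 CPM against 13.7, 12.4 and 12.2 CPM; log2 fold change -0.92 ± 0.07 with adjusted p = 5.85e-06), as did Cd14 (-0.61) and the scavenger receptor Scarf2 (-0.74). Tlr2, Tlr3 and Tlr4 did not pass the test. Leukocyte markers, none of which changed, summed to 8.839 to 87.36 CPM in R26 hypoxia and 17.55 to 91.99 CPM in HIF1a-ko hypoxia, and their part in the Toll-like and Cd14 results was not tested.

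Of 33 cadherins and immunoglobulin-like adhesion molecules 15 fell and 6 rose (median -0.31). Dchs1, a giant cadherin of planar polarity, had 12.8, 13.9 and 13.7 CPM in R26 hypoxia and 4.08, 4.01 and 4.21 CPM in HIF1a-ko hypoxia (log2 fold change -1.72 ± 0.08 with adjusted p = 2.27e-07). Fat4, its binding partner, fell by 0.34 on the log2 scale, whereas Fat1 rose (419, 433 and 478 CPM against 574, 555 and 563 CPM; log2 fold change 0.35 ± 0.06 with adjusted p = 0.000835). Cadm3, a nectin-like molecule, stood at 6.72, 6.21 and 6.47 CPM and 1.56, 1.61 and 2.56 CPM (log2 fold change -1.76 ± 0.18 with adjusted p = 4.02e-05), without overlap. Cdh11, the cadherin of fibroblasts, fell by 1.06 and Vcam1 and Icam1 by 0.34 and 0.26 on the log2 scale. Cdh2, N-cadherin, rose by 0.20.

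Transporters and channels changed in 171 of 269 tested cases (63.6%, against 45.8% of all genes and 52.5% of protein-coding genes), 86 higher and 85 lower.

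Of 30 amino acid transporters 11 rose and 8 fell (median 0.04, and -0.03 with the shallower libraries alone). The importers that rose serve cystine, large neutral, cationic and small neutral amino acids. Slc7a11 and Slc7a5, the light chains for cystine and large neutral amino acids, had log2 fold changes of 3.54 and 3.14. Slc3a2, the heavy chain that both need at the cell surface, stood at 156, 150.0 and 161 CPM in R26 hypoxia and 331, 298 and 317 CPM in HIF1a-ko hypoxia (log2 fold change 1.02 ± 0.05 with adjusted p = 4.65e-07). Slc7a1, the main carrier of cationic amino acids (chr5:148327410-148399904, reverse strand), stood at 28.6, 28.9 and 31.2 CPM and 131, 118 and 139.8 CPM (log2 fold change 2.13 ± 0.07 with adjusted p = 5.88e-08), with 53.5, 53.3 and 54.7 CPM in normoxia. Its relative Slc7a2, which carries arginine too, fell (86.8, 98 and 95.8 CPM against 42.5, 44.4 and 40.6 CPM; log2 fold change -1.14 ± 0.05 with adjusted p = 3.72e-07). For neither of the 2 cationic carriers did a library of one group reach the other. Slc1a4, a carrier of alanine and serine, stood at 35.3, 30.2 and 38.9 CPM and 109, 103 and 102 CPM (log2 fold change 1.59 ± 0.09 with adjusted p = 7.18e-07), and the glutamine carrier Slc38a1 at 35.7, 33.03 and 36.5 CPM and 85.6, 81.3 and 93.8 CPM (log2 fold change 1.31 ± 0.06 with adjusted p = 3.28e-07). Slc38a2, another carrier of neutral amino acids, fell by 0.43 on the log2 scale, and so did the lysosomal sensor Slc38a9 by 0.28.

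Of 33 transporters of zinc, iron, copper, manganese and magnesium 11 fell and 10 rose (median -0.05, and -0.13 to 0.07 without any single library). Genes of iron import and of iron export both rose: Tfrc, the transferrin receptor, stood at 17.6, 16.5 and 19.7 CPM in R26 hypoxia and 58.4, 46.5 and 70.4 CPM in HIF1a-ko hypoxia (log2 fold change 1.70 ± 0.15 with adjusted p = 1.42e-05), and Slc40a1, the iron exporter ferroportin, at 7.26, 6.11 and 6.08 CPM and 15.02, 16.6 and 13.6 CPM (log2 fold change 1.22 ± 0.10 with adjusted p = 1.18e-05). Tfrc varied widely among the HIF1a-ko libraries, all of which were above the controls. Slc11a2, the divalent metal importer, rose by 0.51 on the log2 scale. Slc39a13, a zinc carrier of the secretory pathway needed in connective tissue, fell, with 96.4, 91.2 and 108 CPM and 56.7, 50.6 and 49.7 CPM (log2 fold change -0.92 ± 0.08 with adjusted p = 1.20e-05). Slc41a1, which exports magnesium, stood at 56.8, 59.9 and 59.1 CPM and 37.9, 37.8 and 35.2 CPM (log2 fold change -0.67 ± 0.05 with adjusted p = 3.79e-06). Its relatives Slc41a2 and Slc41a3 fell too (-0.60 and -0.81). The metallothioneins Mt1 and Mt2, which answer to zinc and copper, did not pass.

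Of 38 carriers of the inner mitochondrial membrane 20 rose and 9 fell (median 0.21), against 22% and 23.8% of all genes. Slc25a5, the ADP/ATP carrier of dividing cells, stood at 84.9, 72.9 and 73.1 CPM in R26 hypoxia and 198, 189 and 208 CPM in HIF1a-ko hypoxia (log2 fold change 1.36 ± 0.08 with adjusted p = 1.34e-06). Slc25a5 shares 33.8% of its 50-base windows with Gm5560 and other copies, so its count is uncertain. Slc25a10, the dicarboxylate carrier, stood at 17.7, 14.9 and 15.6 CPM and 28.3, 26.6 and 28.6 CPM (log2 fold change 0.79 ± 0.08 with adjusted p = 2.83e-05), and Slc25a39, a glutathione carrier, at 75.9, 73.5 and 79.1 CPM and 143, 112 and 120.4 CPM (log2 fold change 0.72 ± 0.09 with adjusted p = 0.000117). Mpc1, a subunit of the pyruvate carrier, rose by 0.64 on the log2 scale, while Mpc2 did not pass, and the calcium uniporter Mcu rose by 0.56. Slc25a23, a calcium-regulated ATP-magnesium carrier, fell (30.2, 35.2 and 32.3 CPM against 16.2, 15.5 and 16.4 CPM; log2 fold change -1.02 ± 0.06 with adjusted p = 1.76e-06), as did the uncoupling protein Slc25a27 (-0.80) and the glutamate carrier Slc25a22 (-0.71).

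Of 39 transporters of nucleosides, vitamins, choline and organic ions 14 fell and 9 rose (median -0.29, but -0.15 without R26 hypoxia 2). Slc44a2, a choline transporter-like protein, had 445, 448 and 487 CPM in R26 hypoxia and 211, 200.3 and 209.9 CPM in HIF1a-ko hypoxia (log2 fold change -1.15 ± 0.05 with adjusted p = 2.03e-07), and its relative Slc44a3 stood at 16.6, 16.02 and 17.8 CPM and 7.64, 6.95 and 6.90 CPM (log2 fold change -1.23 ± 0.07 with adjusted p = 1.09e-06). Slco2a1, the prostaglandin carrier, stood at 71.6, 78.3 and 78.95 CPM and 41.2, 39.9 and 37.03 CPM (log2 fold change -0.95 ± 0.06 with adjusted p = 1.16e-06). All 3 were lower without overlap. Slc20a1, a phosphate importer, rose (21.6, 20.99 and 21.9 CPM against 46.3, 45.4 and 45.1 CPM; log2 fold change 1.08 ± 0.05 with adjusted p = 1.99e-07), and so did Slc23a2, the vitamin C carrier (54.8, 53.9 and 54.6 CPM against 86.9, 90.4 and 89.6 CPM; log2 fold change 0.71 ± 0.04 with adjusted p = 5.91e-07). Exons of Slc20a1 overlap 9830144P21Rik on the other strand over 13.1% of their length.

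Of 31 ABC transporters 11 rose and 10 fell (median 0.04, and -0.12 to 0.09 without any single library). Abcc4, an exporter of cyclic nucleotides and prostaglandins, stood at 18.2, 17.9 and 17.7 CPM in R26 hypoxia and 44.9, 44.9 and 38.3 CPM in HIF1a-ko hypoxia (log2 fold change 1.25 ± 0.07 with adjusted p = 7.40e-07), while Abcc3, an exporter of conjugates, stood at 44.98, 45.9 and 45.4 CPM and 20.1, 21.5 and 18.2 CPM (log2 fold change -1.19 ± 0.06 with adjusted p = 5.71e-07). Abca9, of the lipid-handling A class, stood at 34.5, 33.9 and 32.8 CPM and 10.8, 11.1 and 10.1 CPM (log2 fold change -1.66 ± 0.06 with adjusted p = 8.82e-08), below its normoxia level of 44.7, 48.01 and 48.6 CPM. Tap2, of antigen peptide transport, fell (-0.89). Exons of Tap2 overlap Gm15821 on the other strand over 18.5% of their length.

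Of 33 ion pumps, exchangers and cotransporters 9 fell and 7 rose (median -0.09, and -0.15 to -0.04 without any single library), near the background. Slc12a7, a potassium-chloride cotransporter, stood at 6.83, 8.14 and 6.60 CPM in R26 hypoxia and 15.1, 14.6 and 14.4 CPM in HIF1a-ko hypoxia (log2 fold change 1.04 ± 0.09 with adjusted p = 1.65e-05). The calcium exchangers differed among themselves: Slc8b1 of mitochondria (-0.85) and Slc8a1 of the cell surface (-0.53) fell, and Slc24a3, which also moves potassium, rose (0.68). Slc9a9, a proton exchanger of endosomes, rose by 0.69 on the log2 scale. Of 65 ion channels and aquaporins 24 fell and 18 rose (median -0.09, but 0.02 by DESeq2 and -0.14 to 0.01 without any single library). Gja1, connexin 43, the gap junction protein of fibroblasts (chr10:56377330-56402513, forward strand), stood at 22.7, 25.8 and 21.4 CPM and 73.1, 72.8 and 72.5 CPM (log2 fold change 1.64 ± 0.07 with adjusted p = 1.81e-07), with 31.4, 32.4 and 34.02 CPM in normoxia. The HIF1a-ko libraries agreed within about 1 CPM and were above every control-guide library. Kcnt2, a sodium-activated potassium channel, rose (3.22, 4.38 and 4.12 CPM against 11.4, 11.97 and 10.4 CPM; log2 fold change 1.53 ± 0.12 with adjusted p = 7.94e-06), and Panx1, pannexin 1, rose by 0.73 on the log2 scale. Tmem45a, a membrane protein of unclear function listed with the channels, stood at 194, 186 and 194 CPM and 50.4, 53.03 and 57.3 CPM (log2 fold change -1.84 ± 0.06 with adjusted p = 5.47e-08), below its normoxia level of 69.1, 67.5 and 63.7 CPM. Tmem26, likewise of unclear function, fell by 3.09 on the log2 scale.

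**Figure D5:**
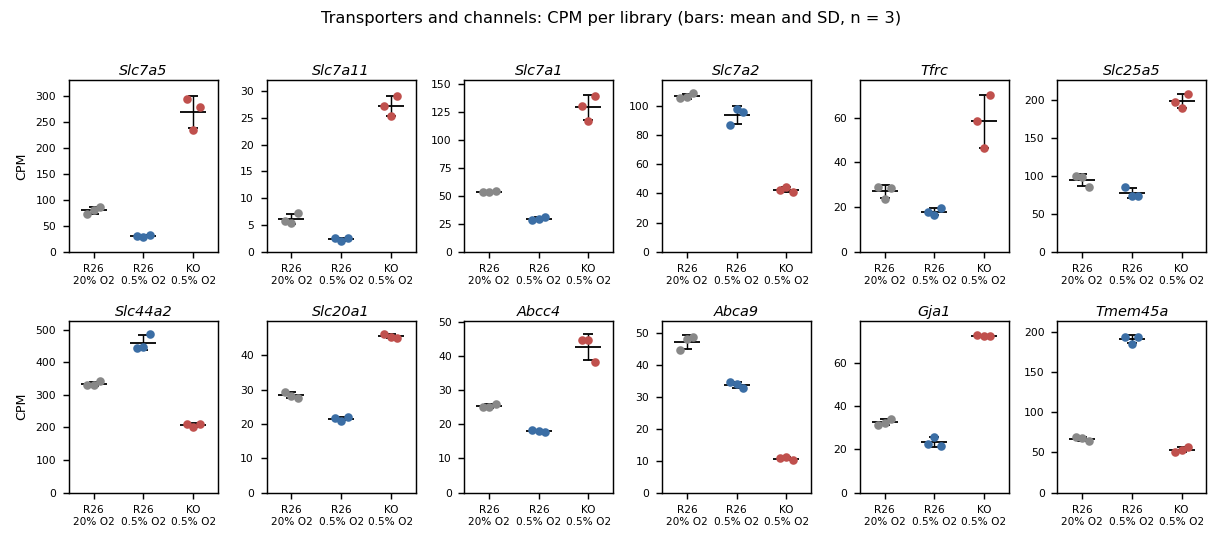
Points are CPM of single libraries for 12 transporters and channels in R26 cells at 20% oxygen (grey), R26 cells at 0.5% oxygen (blue) and HIF1a-ko cells, written KO, at 0.5% oxygen (red), with bars for mean and SD (n = 3), on axes that start at 0. Red points lie above blue ones for Slc7a5, Slc7a11, Slc7a1, Tfrc, Slc25a5, Slc20a1, Abcc4 and Gja1, and below them for Slc7a2, Slc44a2, Abca9 and Tmem45a.

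Read across the classes, 10 members of the identity lists rose and 41 fell, against 31 and 84 transcription factors, 19 and 50 secreted factors, 57 and 85 receptors, 6 and 15 adhesion molecules, and 86 and 85 transporters. The excess of lower over higher calls was present in every class except the transporters, while over all genes the split was 4004 to 4330. Some genes stand in more than 1 list, so the classes are not independent of each other.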

How the data were processed

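Polyadenylated RNA was sequenced in 9 libraries, 6 of which are compared here, and the authors deposited 1 table of raw counts, whole numbers of reads for each of 49315 Ensembl gene IDs. Per the submitters' processing notes the tools were bcl2fastq 2.17, Trimmomatic, STAR, featureCounts and DESeq2 with the genome GRCm38, and their settings, strand handling and annotation release were not given in the sources used here. Without a strand setting, reads of overlapping genes on opposite strands cannot be told apart. Of the IDs, 49056 were paired with symbols from GENCODE M21; the others hold at most 0.018% of counts.

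Counts were fitted for all 9 libraries with edgeR 4.0.16 in R 4.3.3 (TMM factors, filterByExpr, glmQLFit, glmQLFTest, group as the only term), so the 3 groups share 1 estimate of spread. P-values were adjusted with Benjamini-Hochberg over 18211 genes and called under 0.05. On data simulated from these libraries the fit called 68% of genes changed 1.5-fold, 90% of those changed 2-fold, 94% of those at 0.5 of their level and 100% of those changed 4-fold (50 each), with 10 false calls among 17783 genes. Only these genes were changed, all with average log2 CPM over 2. Counts were drawn independently, without a difference between depth classes. In the data 45.8% of genes were called, so these rates need not hold for them. CPM values carry TMM factors, and ± gives the SE of a log2 fold change. Library totals from 43837809 to 107840223 counts set the precision of low genes.

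The comparison, its members and the 35 gene lists (1137 genes) were chosen with earlier results of these data known, and no list result is independent support. Genes were named by rule: up to 3 highest and 3 lowest called members of each list with average log2 CPM of at least 2 and groups that do not overlap, and the 15 highest and 15 lowest over all genes with average log2 CPM of at least 3, leaving out predicted genes and 93 HIF target, glycolysis and cell cycle genes. Every other gene named was chosen after its values were seen. Some genes that the rule or the lists hold are not reported here. Sequence shared between genes was measured as 50-base windows of their exons that occur elsewhere. Motifs were searched on both strands of RefSeq promoters (GRCm38.p6), and 157 of the 199 genes named by rule matched one. Alternatives were DESeq2 1.42.0, other size factors, no filter, hypoxia libraries only, a replicate block, a depth class term, shallower libraries only, and leaving out each library. Figures were drawn with matplotlib 3.10.9 from tables made with pandas 2.3.3 in Python 3.11.15.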

Additional observations from a re-analysis of the deposited data

How the results depend on the processing

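The number of changed genes, 8334 in the fit of all 9 libraries, was 7999 with the 6 hypoxia libraries only, 8333 by DESeq2, 8328 with RLE size factors and 7699 without the filter. It was 10424 with depth class as a term, 9323 with the shallower libraries only, and 9803 with that term in the 6 hypoxia libraries, an alternative chosen after seeing the data. Leaving out each library in turn gave 7195 to 8400. With a replicate block over the hypoxia libraries 6761 genes changed, 3204 higher and 3557 lower. Same-numbered libraries do not deviate together: their correlations were -0.656, 0.574 and -0.651, while the pair of deeper libraries reached 0.828, so the numbers were not taken as pairs. Of the 199 genes named by rule 190 kept their call in all of these fits and none changed direction. The 9 that lost it in at least 1 fit were Fbln2, Mcam, Foxc1, Msx1, Klf10, Irf9, Kitl, Angptl4 and Tyro3, with adjusted p up to 0.2. The 199 genes were picked from these same libraries as called, extreme and without overlap. Their kept calls and directions are therefore no independent support. With the block Foxc1 was at 0.0589, Klf10 at 0.0526 and Angptl4 at 0.0661. Counts of list members that moved by over 1.5 times mostly grew with depth class as a term. NOTCH members were then 5 higher and 5 lower, basic helix-loop-helix factors 12 lower, ephrins 4 higher, and stellate cell genes 9 higher. The block lowered immediate early factors to 2 higher and WNT ligands to 5 lower. The cause was not tested.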
